A study of Mus musculus with 6 samples.

Results

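The genes described here are 46 G protein-coupled receptors and signal regulators of blood stem cells, taken from the 52183 genes of the deposited expression table by exact match of the gene symbol. All 46 were found, each in 1 row. They comprise 4 chemokine receptors, 12 receptors for lipids, 5 for purines, 3 for melanocortin, histamine or thrombin, 6 adhesion receptors, 4 other or orphan receptors, 6 genes of the frizzled class together with Lgr4, and 6 intracellular regulators (5 RGS proteins and the receptor kinase Grk6). RNA was sequenced from haematopoietic stem cells sorted by flow cytometry from the bone marrow of female mice aged 4 months. There were 3 libraries with the genotype control and 3 with the genotype Thbs1 knockout, both untreated as far as the labels say. Thbs1 encodes thrombospondin-1, a secreted matrix glycoprotein. The strain, the deleted stretch of Thbs1, the genotype of the control animals beyond the word control, and whether each library came from its own animal are not stated in the labels, so p-values reflect variation among the 6 libraries alone, some of which may be technical.

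G protein-coupled receptors are membrane proteins that answer an outside ligand by loading GTP onto a G protein inside the cell. The stimulatory class of G protein raises cyclic AMP, the inhibitory class lowers it, the Gq class activates phospholipase C beta, and the G12 class acts on the cytoskeleton. RGS proteins end the signal by speeding GTP hydrolysis, and receptor kinases such as Grk6 mark active receptors for arrestin. In the bone marrow, the chemokine receptor Cxcr4 holds stem cells in their niche, sphingosine-1-phosphate receptors take part in their traffic, prostaglandin E2 receptors act on their maintenance, and thrombin and purine receptors respond to injury. Frizzled proteins receive WNT ligands, Lgr4 binds R-spondins that strengthen WNT signals, and Smo transmits hedgehog signals.

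Levels are given in FPKM, a read number scaled to exon length and to the size of the library, so that genes can be compared with each other. Values of single libraries are listed in the order of their replicate number. Steps between low values of short genes correspond to 22730000 to 30890000 reads per library. All 13 stem cell markers examined had a mean above 1 FPKM, and their sum was 814 to 895 FPKM in the control libraries and 784 to 872 FPKM in the libraries labelled knockout. Thbs1 itself measured 4.12, 13.82 and 2.33 FPKM in the control, against 10.82, 8.50 and 7.68 FPKM under the knockout label. It was thus not lower where the label says knockout (limma log2 change 0.65 ± 0.43 SE, adjusted p = 0.503). The exact two-sided permutation test of its FPKM gave p = 0.5, and no p below 0.1 is possible with 3 libraries a group. Without control 2 the change was 1.26 (limma adjusted p = 0.0344), in the direction opposite to the label. Reads from outside a deleted stretch would still count toward this value, so it does not check the labels, and every direction below is between libraries as labelled.

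The level of the 46 genes spanned from undetected to among the highest in the cell. Adgrg1, the adhesion receptor also known as GPR56 and a long-used stem cell marker, stood at 599 ± 42.4 FPKM (SD, n = 3) in the control and 608 ± 64.4 FPKM (SD, n = 3) in the knockout-labelled libraries. Only 0.287% of the 12555 genes that entered the test had a higher mean. This single gene made up 44.4% to 50.3% of the summed FPKM of the 46 genes, which was 1239 to 1400 FPKM per library. The next were Rgs18 and Adgrl4, and these 3 were the members with a mean of at least 100 FPKM. A further 14 lay between 10 and 100 FPKM, 18 between 1 and 10 FPKM, and 11 below 1 FPKM. The median over the 35 members that were tested was 9.58 FPKM, beside 8.81 FPKM over all tested genes.

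**Figure D1:**
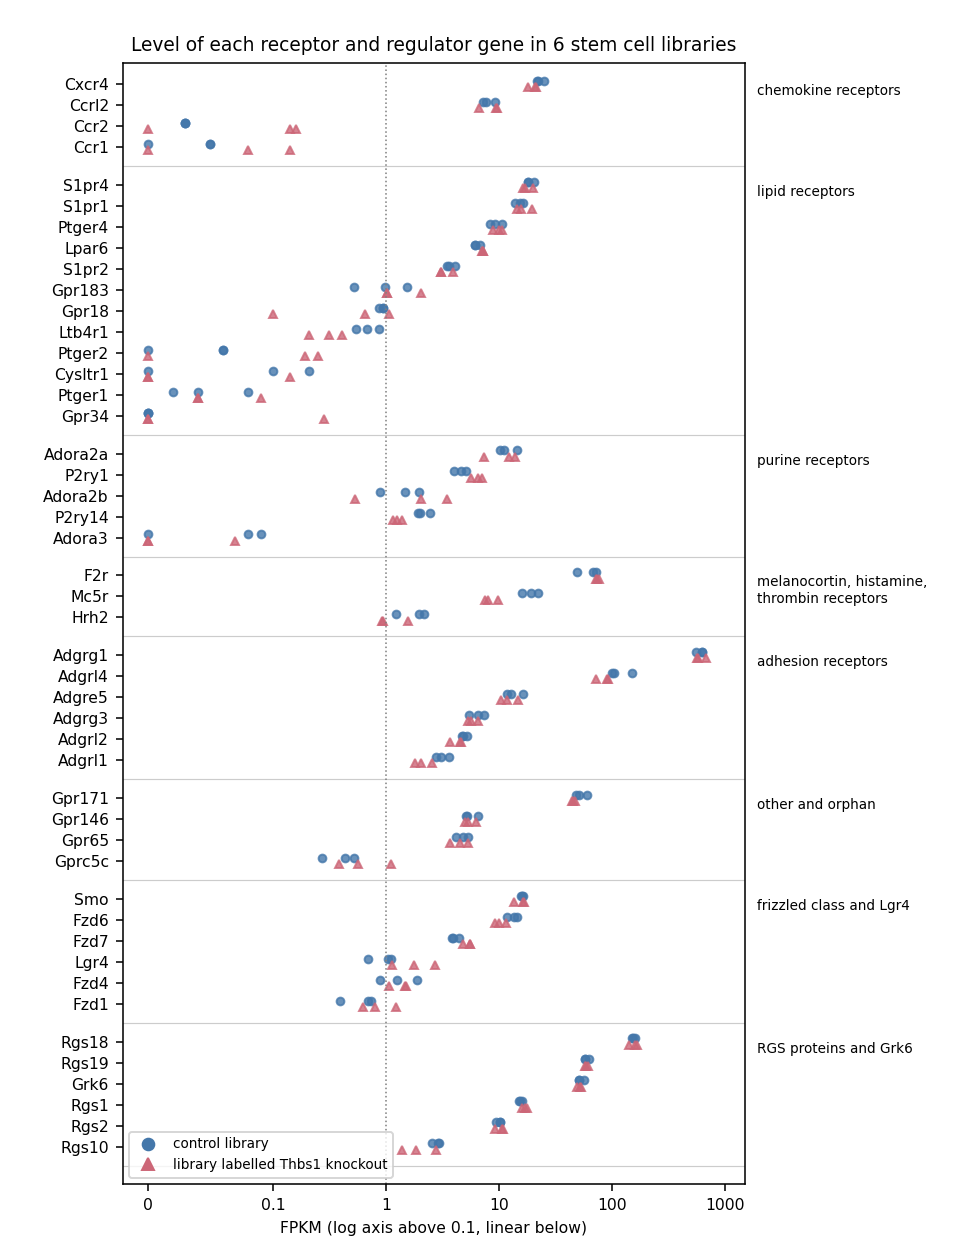
Level of each of the 46 genes in FPKM (horizontal axis, logarithmic above 0.1 and linear below) in each control library (blue circles) and each library labelled Thbs1 knockout (red triangles), grouped by receptor class and ordered by mean level. Adgrg1 stands at the far right in all 6 libraries, the dotted line marks 1 FPKM, and only in Mc5r are the 2 groups separated by a wide gap among the genes above 10 FPKM in the control libraries.

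A gene entered the test when it reached 1 FPKM in at least 3 of the 6 libraries, and 35 of the 46 did. Of these 35, only Mc5r passed limma's test at an adjusted p below 0.05. It was lower in the knockout-labelled libraries; 0 members were higher and 34 did not pass. Over all 12555 tested genes 1.56% passed, 0.566% higher and 0.996% lower. At an unadjusted p below 0.05 there were 9 members of 35 (25.7%), 3 higher and 6 lower, against a background of 16.4% (8.92% higher and 7.46% lower). The values of the 2 groups did not overlap in 14 of 35 members (40%), 6 with higher and 8 with lower values in the knockout-labelled libraries, against 22.8% of all tested genes (12.6% higher and 10.1% lower). The median log2 change of the 35 members was -0.04, beside 0.01 over all tested genes, and the median size of the change without its sign was 0.14 beside 0.12. In sorted populations such as these, fewer cells of a type and less RNA per cell cannot be told apart.

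The direction of many members differs between FPKM and values rescaled to the same sum in each library. Scaling by the median of ratios turned the sign of 0 members. Quantile normalization turned 3, all near 0 (Gpr146, Rgs18 and Rgs19). Summed over all genes, the FPKM values came to 373903, 376878 and 408725 in the control libraries and to 339652, 337030 and 329434 in those labelled knockout, so rescaling each library to the same sum (TPM) lifts the knockout-labelled values. The median log2 change of all tested genes was then 0.19 and that of the members 0.16, and 94.0% of the genes that passed were higher, beside 36.2% in FPKM. Of 15277 genes tested in TPM, 2016 passed as higher and 128 as lower. On that scale Mc5r still passed as lower (log2 change -0.94, limma adjusted p = 0.0137), while P2ry1 (0.66, 0.0217), Fzd7 (0.53, 0.0405) and Rgs19 (0.21, 0.0495) passed as higher, the last by no more than about the shift of all genes. The sign of 11 members turned from lower to higher, all of which missed the threshold in both: Adgre5, Adgrg3, Adgrl2, Adora2a, Cxcr4, Gpr146, Gpr65, Grk6, S1pr2, S1pr4 and Smo.

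**Figure D2:**
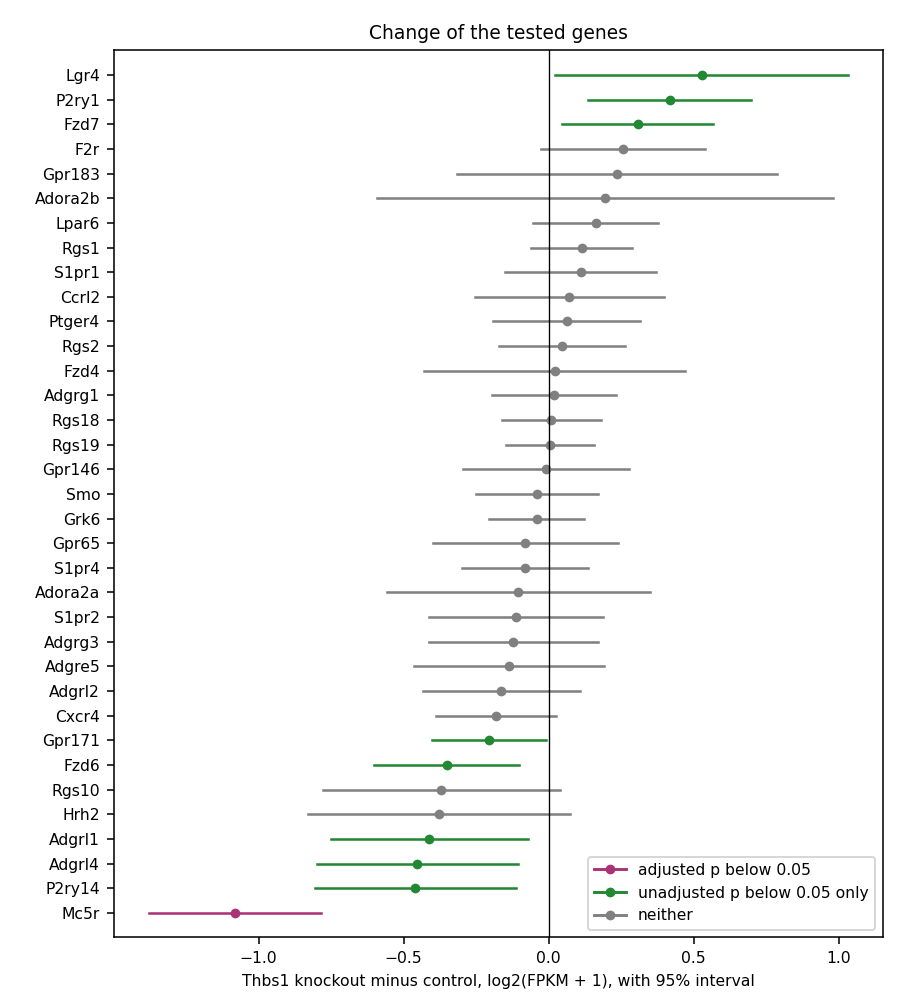
Log2 change of each of the 35 tested genes, libraries labelled Thbs1 knockout minus control on the log2(FPKM + 1) scale (horizontal axis), with limma's 95% interval as a line. Mc5r (purple) lies apart at -1.08, 8 genes (green) have an unadjusted p below 0.05 only, and the intervals of the other 26 (grey) include 0.

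Mc5r encodes the melanocortin receptor that is best known from exocrine glands, binds alpha-MSH and ACTH, and raises cyclic AMP through the stimulatory G protein. Its gene (ENSMUSG00000007480) lies on the plus strand of chromosome 18 from 68337596 to 68342446 (GRCm38) and has 3904 bp of exon, none of which overlaps another gene's exons. The transcript stood at 19.04, 22.28 and 15.99 FPKM in the control, against 8.05, 7.57 and 9.79 FPKM in the knockout-labelled libraries. Every knockout-labelled value lay below every control value. The means were 19.1 ± 3.15 and 8.47 ± 1.17 FPKM (SD, n = 3 each), which is 2.26-fold lower in the knockout-labelled group. The log2 change was -1.08 ± 0.13 (SE; 95% interval -1.38 to -0.78; limma adjusted p = 0.00448) and rested on 771 to 1998 reads per library. It held when any 1 library was left out (limma adjusted p between 0.00518 and 0.0232). It missed the threshold when all 35246 genes with any signal were tested together (limma adjusted p = 0.103). The neighbouring gene Rnmt, an mRNA cap methyltransferase, stood at 16.1 ± 1.15 and 15.1 ± 1.11 FPKM (SD, n = 3 each), with overlapping groups. Mc2r, the ACTH receptor that lies on its other side, did not exceed 0.19 FPKM in any library.

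Mc5r belongs to 7 members known to couple to the stimulatory G protein, with the adenosine receptors Adora2a and Adora2b, the prostaglandin E2 receptors Ptger2 and Ptger4, the histamine receptor Hrh2 and the proton-sensing receptor Gpr65. Mc5r had the highest level of the 7 in each control library, where it made up 36.9%, 44.5% and 36.9% of their summed FPKM. In the knockout-labelled libraries it made up 20.9%, 22.9% and 24.5%, and Adora2a (libraries 1 and 3) or Ptger4 (library 2) stood highest. The sum of the 7 was 51.6, 50.1 and 43.4 FPKM in the control and 38.5, 33.0 and 40.0 FPKM in the knockout-labelled libraries. Without Mc5r it was 32.5, 27.8 and 27.4 FPKM against 30.5, 25.4 and 30.3 FPKM, so the groups overlapped once Mc5r was taken out. No single test was run on these sums, since Mc5r was known to differ.

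**Figure D3:**
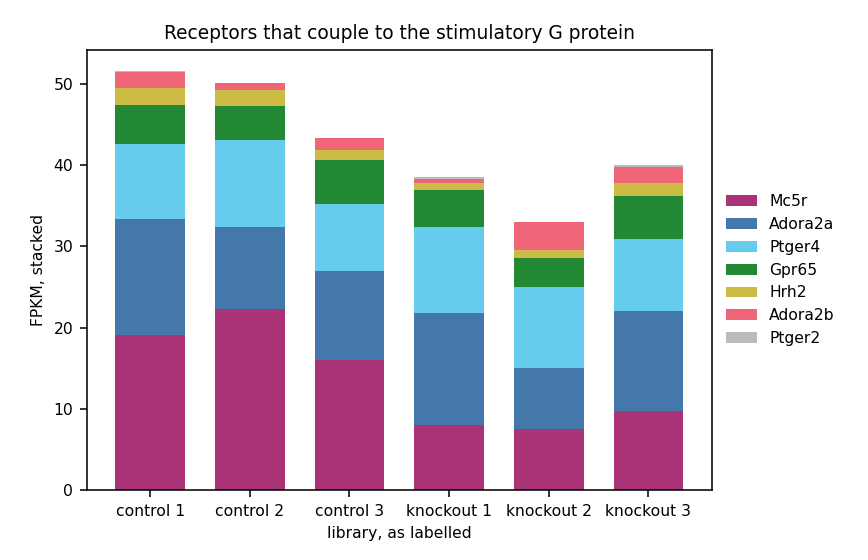
Stacked FPKM (vertical axis from 0) of the 7 receptors that couple to the stimulatory G protein, one bar per library as labelled. The Mc5r segment at the base spans 15.99 to 22.28 FPKM in the control bars and 7.57 to 9.79 FPKM in the knockout-labelled bars, while the segments above it overlap in height between the groups.

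Of these partners, Adora2a stood at 11.8 ± 2.25 FPKM in the control and 11.2 ± 3.31 FPKM in the knockout-labelled libraries (SD, n = 3 each; 95% interval of the log2 change -0.56 to 0.35). Ptger4, the prostaglandin E2 receptor with the highest level here, stood at 9.36 ± 1.19 and 9.79 ± 0.876 FPKM (interval -0.19 to 0.32), and Gpr65 at 4.77 ± 0.566 and 4.48 ± 0.806 FPKM (interval -0.40 to 0.24). Hrh2 stood at 1.78 ± 0.495 and 1.14 ± 0.358 FPKM, with a wide interval of -0.83 to 0.08. Adora2b, at 1.44 ± 0.536 and 2.01 ± 1.47 FPKM, had the widest interval of all tested members, -0.59 to 0.98. Ptger2 was represented by 0 to 33 reads per library and was not tested. These intervals leave room for differences of the size seen in other members, and only for Mc5r do they exclude 0 among the 7.

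F2r, the thrombin receptor PAR1, which couples to Gq, G12 and inhibitory G proteins, had a control mean of 62.8 ± 12.2 FPKM and a knockout-labelled mean of 74.2 ± 2.21 FPKM (SD, n = 3 each). Its groups did not overlap, with control 3 the lowest at 48.98 FPKM, and the change missed the threshold (log2 change 0.26, interval -0.03 to 0.54, limma adjusted p = 0.356).

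Among the chemokine receptors, Cxcr4, which binds Cxcl12, stood at 22.9 ± 1.74 FPKM in the control and 20.1 ± 1.80 FPKM in the knockout-labelled libraries (SD, n = 3 each). The groups did not overlap, and the change missed the threshold (log2 change -0.18, interval -0.39 to 0.03, limma adjusted p = 0.366). Ccrl2, a chemerin-binding receptor that does not signal through G proteins, stood at 8.04 ± 1.08 and 8.55 ± 1.62 FPKM. Ccr1 and Ccr2, chemokine receptors of monocytes and other myeloid cells, were near background, with at most 10 and 28 reads in any library. They were not tested.

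The 12 lipid receptors divided into 6 that were tested and 6 that were not. The sphingosine-1-phosphate receptors S1pr4 (18.8 ± 1.31 and 17.7 ± 1.98 FPKM), S1pr1 (15.1 ± 1.18 and 16.5 ± 2.62 FPKM) and S1pr2 (3.71 ± 0.321 and 3.37 ± 0.488 FPKM) all had overlapping groups in control and knockout-labelled libraries. S1pr1 couples to the inhibitory G protein, while S1pr2 also uses the G12 class. Lpar6, a receptor for lysophosphatidic acid, stood at 6.32 ± 0.368 and 7.18 ± 0.0624 FPKM with groups apart (log2 change 0.16, interval -0.05 to 0.38, limma adjusted p = 0.446). Gpr183, which senses oxysterols, stood at 1.01 ± 0.501 and 1.36 ± 0.589 FPKM. None of the 6 tested passed the threshold.

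Of the 6 lipid receptors below the entry level, the leukotriene B4 receptor Ltb4r1 was the one whose groups did not overlap. It stood at 0.86, 0.68 and 0.54 FPKM (31, 22 and 17 reads) in the control and 0.21, 0.41 and 0.31 FPKM (9, 15 and 11 reads) in the knockout-labelled libraries. Gpr18 stood at 0.91 ± 0.0462 and 0.61 ± 0.486 FPKM. Gpr34, a receptor for lysophosphatidylserine, had 18 reads in knockout-labelled library 1 and 0 reads in the other 5. Cysltr1, a receptor for cysteinyl leukotrienes, had 0 to 25 reads per library. Ptger1 had 2 to 15 reads per library.

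Of the 4 tested purine receptors none passed, and P2ry1 and P2ry14 had fitted changes of opposite sign. P2ry1, the ADP receptor that couples to Gq and drives platelet shape change, stood at 4.61, 3.99 and 5.12 FPKM in the control, against 5.68, 7.06 and 6.58 FPKM in the knockout-labelled libraries. All knockout-labelled values lay above all control values (log2 change 0.42 ± 0.12 SE, limma adjusted p = 0.139). An antisense gene, Gm37035, shares 23.1% of the exon length of P2ry1 and did not exceed 0.43 FPKM. P2ry14, a receptor for UDP-glucose described on primitive blood cells, stood at 2.46, 1.93 and 1.98 FPKM in the control and 1.15, 1.39 and 1.26 FPKM in the knockout-labelled libraries. All its knockout-labelled values lay below all control values (log2 change -0.46 ± 0.15 SE, limma adjusted p = 0.182). Adora3, an inhibitory adenosine receptor, had 0 to 8 reads per library.

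P2ry14 and Gpr171 lie 12.03 kb apart on chromosome 3, within the span of Med12l and beside P2ry13 and P2ry12. The last 2 are not members, and they were looked at because P2ry14 and Gpr171 both had lower FPKM in the knockout-labelled libraries. P2ry13, another ADP receptor, stood at 0.75, 0.70 and 1.03 FPKM (41 to 59 reads) in the control and 0.15, 0.29 and 0.46 FPKM (12 to 30 reads) in the knockout-labelled libraries. P2ry12, the platelet ADP receptor, had 7, 11 and 7 reads in the control libraries and 0 reads in each knockout-labelled one. Over the depths of all 6 libraries, 3 reads of P2ry12 would be worth 0.0381 to 0.0518 FPKM. Med12l, which spans these genes on the other strand, stood at 4.50 ± 1.05 and 3.95 ± 0.817 FPKM (SD, n = 3 each) with overlapping groups. P2ry13 and P2ry12 were too low to enter the test. P2ry1 lies 1849 kb from P2ry14 on the same chromosome.

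The promoters of P2ry14 and P2ry1, with those of Adgrl4 and Fzd7, are shown because these 4 genes, 2 lower and 2 higher in the knockout-labelled libraries, were among the 8 with an unadjusted p below 0.05 alone. Each is the 250 bases before the RefSeq transcription start (GRCm38.p6), 5′ to 3′ on the gene's strand, with the dinucleotide CpG in capitals. P2ry14 has 4 listed starts, and the most upstream is shown, at chr3:59153493-59153742 on the minus strand. Adgrl4 is at chr3:151437632-151437881, P2ry1 at chr3:61002535-61002784 and Fzd7 at chr1:59481897-59482146, each on the plus strand. Bases shortly after the RefSeq start lie in a GENCODE transcript of the gene for P2ry14, Adgrl4 and P2ry1. For Fzd7 they do not, and its GENCODE gene starts further downstream, at 59482424.
P2ry14: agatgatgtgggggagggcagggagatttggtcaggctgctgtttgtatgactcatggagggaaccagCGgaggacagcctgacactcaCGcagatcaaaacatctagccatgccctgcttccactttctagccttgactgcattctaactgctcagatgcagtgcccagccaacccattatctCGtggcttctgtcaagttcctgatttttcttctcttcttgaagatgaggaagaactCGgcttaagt
Adgrl4: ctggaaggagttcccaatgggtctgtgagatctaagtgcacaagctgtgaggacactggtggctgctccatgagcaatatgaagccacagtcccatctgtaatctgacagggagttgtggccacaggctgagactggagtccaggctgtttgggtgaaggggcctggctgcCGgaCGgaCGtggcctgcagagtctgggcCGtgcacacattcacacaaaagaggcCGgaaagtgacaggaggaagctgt
P2ry1: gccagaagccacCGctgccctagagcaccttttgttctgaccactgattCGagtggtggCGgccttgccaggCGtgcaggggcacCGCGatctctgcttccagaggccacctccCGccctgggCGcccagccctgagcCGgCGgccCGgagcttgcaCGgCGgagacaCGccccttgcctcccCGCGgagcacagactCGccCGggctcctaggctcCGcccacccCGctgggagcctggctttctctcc
Fzd7: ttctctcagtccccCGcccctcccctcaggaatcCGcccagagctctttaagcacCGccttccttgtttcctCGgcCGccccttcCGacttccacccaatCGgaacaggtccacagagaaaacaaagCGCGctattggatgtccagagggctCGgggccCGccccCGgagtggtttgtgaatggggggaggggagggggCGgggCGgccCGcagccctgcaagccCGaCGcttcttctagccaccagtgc
The P2ry14 window holds 4 CpG and the Adgrl4 window 5, counts that 62.2% and 55.6% of all 32851 windows in the RefSeq table reach. The P2ry1 window holds 20 and the Fzd7 window 17, which 17.9% and 23.5% of windows reach. CpG number did not follow direction among these members: Adgrl1, with lower values, had 21, and Lgr4, with higher values, 10.

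Of the 46 members, 34 matched the promoter table, with 47 listed starts. For 38 of these starts, bases shortly after the start lie in a GENCODE transcript of the gene. By the start with the most CpG, the 27 tested members with an entry had a median of 15 CpG in the window (range 0 to 34), and 14 of them had at least 15. Counted the same way, 29.6% of all genes in the promoter table, tested or not, had at least 15. The share among all tested genes was not counted, so these tested members have no like background here. The 7 members that were below the entry level and had an entry had a median of 3 CpG (range 0 to 12). Over all single windows, not the best of each gene, the median was 6. Adgrg1, the member with the highest level, had 4 CpG before its start. The cyclic AMP response element TGACGTCA, which reads the same on both strands, occurred in the window of 1 member, S1pr2, and in 1.55% of all windows.

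All 6 adhesion receptors, a family with long outer domains that bind matrix and neighbouring cells, were tested, and none passed. In FPKM 5 of the 6 fitted changes were below 0, beside 5851 of all 12555 tested genes, while in TPM only those of Adgrl4 and Adgrl1 were. Adgrl4, also expressed in endothelium, stood at 100.03, 151.19 and 103.35 FPKM in the control, against 72.43, 92.98 and 89.73 FPKM in the knockout-labelled libraries. Control 2 was far above the rest, and the groups did not overlap. The log2 change was -0.45 ± 0.15 (SE; limma adjusted p = 0.187), and -0.26 without control 2 (limma adjusted p = 0.366). Adgrl1, a latrophilin, stood at 3.08, 2.78 and 3.61 FPKM in the control and 2.55, 1.81 and 2.03 FPKM in the knockout-labelled libraries, again without overlap. Its log2 change was -0.41 ± 0.15 (SE; limma adjusted p = 0.215), and 12.9% of its exon length overlaps Gm10644 on the opposite strand. The related Adgrl2 stood at 4.91 ± 0.279 and 4.29 ± 0.512 FPKM (SD, n = 3 each), with groups apart and an interval of -0.43 to 0.11. The 3 Adgrl genes thus all had lower values in FPKM with no overlap of the groups; in TPM the log2 changes were -0.25 for Adgrl4, -0.32 for Adgrl1 and 0.00 for Adgrl2.

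Adgrg1 and Adgrg3 lie 3.48 kb apart on chromosome 8. Close as they lie, Adgrg3, a receptor of granulocytes also known as GPR97, stood far below Adgrg1, at 6.47 ± 0.993 FPKM in the control and 5.85 ± 0.641 FPKM in the knockout-labelled libraries. The log2 change of Adgrg1 was 0.02 with an interval of -0.20 to 0.23. Adgre5, which encodes the leukocyte antigen CD97, stood at 13.7 ± 2.37 and 12.3 ± 2.27 FPKM. Of its exon length 23.8% overlaps the RNA helicase gene Ddx39 on the opposite strand, which stood at 38.7 FPKM over all libraries, so part of the reads given to Adgre5 may belong to Ddx39.

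Gpr171, a receptor with a proposed neuropeptide ligand, stood at 59.72, 47.87 and 50.84 FPKM in the control and 44.24, 46.81 and 45.33 FPKM in the knockout-labelled libraries. The groups did not overlap, although control 2 lay close to the highest knockout-labelled value. The log2 change was -0.21 ± 0.09 (SE; limma adjusted p = 0.283), -0.12 without control 1, and -0.01 in TPM. Gpr146 stood at 5.61 ± 0.762 and 5.57 ± 0.668 FPKM (SD, n = 3 each; interval -0.29 to 0.28). Gprc5c, an orphan receptor used to mark dormant stem cells, had levels of 0.41 ± 0.127 and 0.68 ± 0.373 FPKM and was not tested.

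The fitted changes of the frizzled receptors differed in sign, and none passed. Fzd6, the frizzled with the highest level, stood at 13.70, 14.45 and 11.83 FPKM in the control and 9.93, 9.20 and 11.60 FPKM in the knockout-labelled libraries. Its knockout-labelled values were all below the control values, by a narrow margin between library 3 of each group (log2 change -0.35 ± 0.11 SE, limma adjusted p = 0.160; -0.17 in TPM). Fzd7 stood at 3.92, 4.40 and 3.87 FPKM in the control and 5.53, 4.76 and 5.51 FPKM in the knockout-labelled libraries. Here all knockout-labelled values were above the control values (log2 change 0.31 ± 0.12 SE, limma adjusted p = 0.225). Fzd4 stood at 1.34 ± 0.505 and 1.35 ± 0.241 FPKM with a wide interval of -0.43 to 0.47. Fzd1 stood at 0.60 ± 0.186 and 0.88 ± 0.308 FPKM and was not tested. Whether the changes of Fzd6 and Fzd7 differ from each other was not tested.

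Lgr4 stood at 1.04, 1.11 and 0.69 FPKM in the control and at 1.13, 2.72 and 1.75 FPKM in the knockout-labelled libraries. Knockout-labelled library 2 was the highest and library 1 only just above control 2, so the groups were barely apart. The log2 change was 0.53 ± 0.22 (SE; limma adjusted p = 0.284) and 0.32 without knockout-labelled library 2. Lgr4 lies 8.10 Mb from Thbs1 on chromosome 2. Smo stood at 16.0 ± 0.426 and 15.6 ± 1.65 FPKM (SD, n = 3 each; interval -0.25 to 0.17), a narrow interval beside that of Lgr4.

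**Figure D4:**
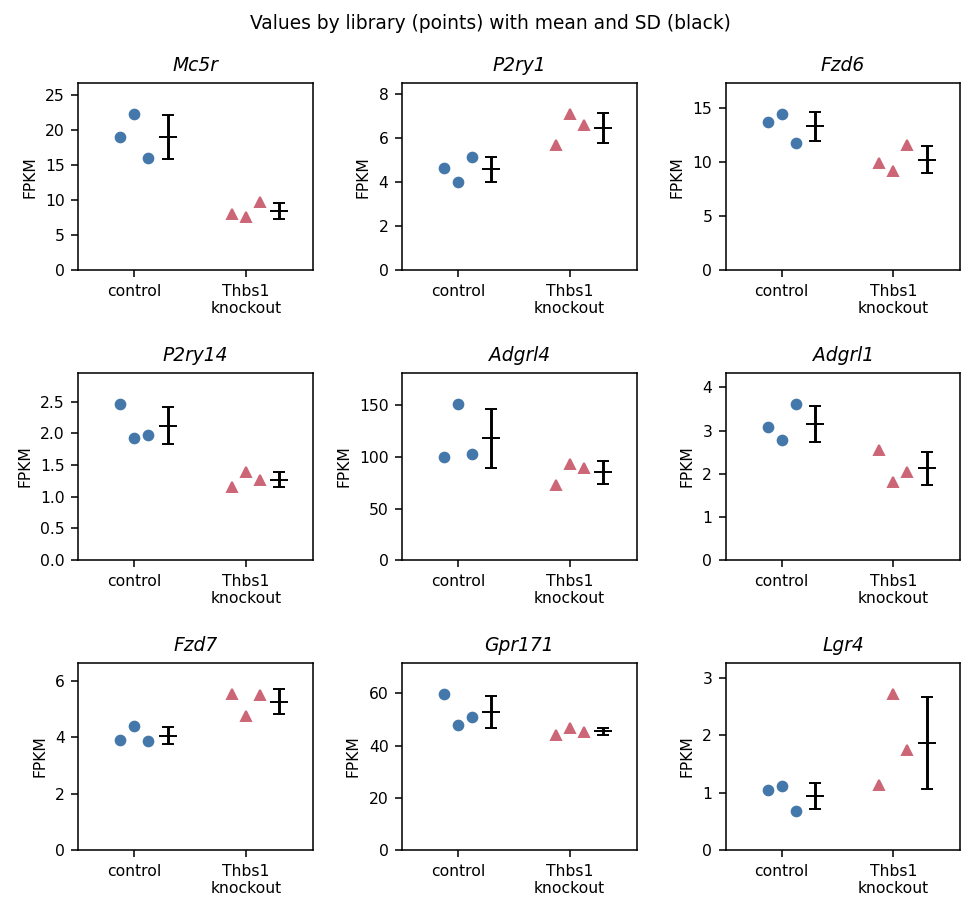
FPKM (vertical axes from 0) of the 9 genes with an unadjusted p below 0.05 in each control library (blue circles) and each library labelled Thbs1 knockout (red triangles), with the mean and SD of each group in black. The gap between groups is wide in Mc5r, while in Fzd6, Gpr171 and Lgr4 the nearest points of the groups almost meet and in Adgrl4 control 2 stands alone at 151.19 FPKM.

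The regulators had 0 of 6 genes with an unadjusted p below 0.05 in FPKM, beside a background of 16.4%, and a median size of change of 0.04 on the log2 scale. In TPM 3 of the 6 had an unadjusted p below 0.05, all higher: Rgs19 (log2 change 0.21), Rgs1 (0.32) and Rgs18 (0.21), beside a median of 0.19 over all genes. The share of all genes at that unadjusted level was not counted in TPM. Even at the adjusted threshold 2016 of 15277 genes were higher on that scale, so the 16.4% is no background for these 3. Rgs18, which is confined largely to blood and platelets, stood at 155 ± 5.30 FPKM in the control and 156 ± 12.3 FPKM in the knockout-labelled libraries (SD, n = 3 each). The 95% interval of its log2 change ran from -0.16 to 0.18. Rgs19 stood at 59.1 ± 2.70 and 59.3 ± 2.17 FPKM (interval -0.15 to 0.16), and Grk6 at 53.2 ± 3.21 and 51.6 ± 2.20 FPKM (interval -0.20 to 0.12). Rgs2, which acts mainly on Gq, stood at 9.89 ± 0.467 and 10.3 ± 0.903 FPKM. Rgs1 stood at 15.46, 15.93 and 15.15 FPKM in the control and 16.13, 16.91 and 17.60 FPKM in the knockout-labelled libraries, apart but by little (log2 change 0.11, limma adjusted p = 0.510). Rgs10 stood at 2.81 ± 0.227 and 2.00 ± 0.698 FPKM (interval -0.78 to 0.04). Rgs2, Rgs1 and Rgs18 share a stretch of chromosome 1 with gaps of 238 kb and 503 kb. Rgs13 and Rgs21, which lie in that stretch, had at most 5 reads in any library.

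Other genes of the same pathways were counted in 8 lists with 241 genes in the table. Of the 132 tested, 3 were higher, 2 lower and 127 did not pass (background 0.566% higher and 0.996% lower), and 26 (19.7%) had an unadjusted p below 0.05. Their median log2 change was 0.00. In the list of 29 tested effectors of G proteins, 1 had an unadjusted p below 0.05, beside 16.4% of all tested genes. That gene also passed: Plcb2, the phospholipase C beta of blood cells that Gq and G beta-gamma subunits activate. It fell from 34.09, 36.09 and 33.39 FPKM in the control to 24.33, 23.09 and 22.59 FPKM in the knockout-labelled libraries, a log2 change of -0.55 ± 0.07 (SE, limma adjusted p = 0.00699). It kept its call in all 6 fits that left out 1 library. Plcb2 lies on chromosome 2 from 118707517 to 118728438, close to Thbs1 at 118111876 to 118127133.

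Among 22 tested blood-cell receptors outside the members, 1 was lower and 2 were higher. Tbxa2r, the thromboxane receptor that signals through Gq and G12 in platelets, fell from 19.72, 19.34 and 20.84 FPKM to 13, 11.83 and 13.19 FPKM (log2 change -0.62 ± 0.08 SE, limma adjusted p = 0.00715) and kept its call in all 6 such fits. Lpar5, a receptor for lysophosphatidic acid, rose from 8.36 ± 0.435 to 12.6 ± 0.442 FPKM (SD, n = 3 each; log2 change 0.54 ± 0.09 SE, limma adjusted p = 0.0203), and lost its call in all 6 (adjusted p 0.0522 to 0.0968). Ramp2, which partners the adrenomedullin receptor, rose from 2.52 ± 0.703 to 5.61 ± 0.749 FPKM (log2 change 0.92 ± 0.16 SE, limma adjusted p = 0.0311). It kept its call only without control 3 (adjusted p 0.0214 to 0.104 over the 6 fits), and 33.4% of its exon length overlaps Vps25. Of 16 tested WNT and hedgehog genes, 1 had an unadjusted p below 0.05, and it also passed: Dvl1, the dishevelled protein downstream of frizzled receptors. Dvl1 rose from 13.8 ± 0.995 to 19.6 ± 1.05 FPKM (log2 change 0.48 ± 0.09 SE, limma adjusted p = 0.0317). It kept its call only without control 1 (adjusted p 0.0481 to 0.119).

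The other 5 lists had 0 genes past the threshold, and the gene nearest to it is named for each. The background for their counts at an unadjusted p below 0.05 was 16.4% of all tested genes, 8.92% higher and 7.46% lower. In the 19 tested G protein subunits, 5 had an unadjusted p below 0.05, 1 higher and 4 lower. The 4 lower were Gnb1, Gnaq, Gnb2 and Gng12 (log2 change -0.22, -0.35, -0.25 and -0.23). The gene nearest to the threshold was the 1 higher, Gna15, the promiscuous alpha subunit of blood cells. Its means were 33.5 ± 0.830 and 43.7 ± 4.12 FPKM (SD, n = 3 each, limma adjusted p = 0.0626). In the 13 arrestins, receptor kinases and further RGS proteins the nearest was the G protein chaperone Ric8b, at 7.30 ± 0.397 and 9.08 ± 1.26 FPKM (limma adjusted p = 0.281, 1 unadjusted). In the 8 cyclic AMP-responsive genes it was the clock gene Per1, at 4.47 ± 0.985 and 7.18 ± 1.15 FPKM (limma adjusted p = 0.107; 3 unadjusted, all higher). In the 18 enzymes that make or break down ligands it was adenosine deaminase, Ada, at 17.4 ± 1.91 and 12.99 ± 1.66 FPKM (limma adjusted p = 0.130; 4 unadjusted). In the 7 chemokine ligands it was Pf4, platelet factor, at 315 ± 42.3 and 189 ± 48.4 FPKM (limma adjusted p = 0.0594; 1 unadjusted).

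Markers of other cell types were summed in each library. The 8 megakaryocyte and platelet markers summed to 391 to 494 FPKM in the control and 272 to 380 FPKM in the knockout-labelled libraries, 7 of them with a mean of at least 1 FPKM. Without Pf4 the sums were 121 to 145 and 113 to 135 FPKM, which overlap. The 8 erythroid markers summed to 44.9 to 50.5 and 36.1 to 40.4 FPKM, and to 32.4 to 38.9 and 22.5 to 26.9 FPKM without Epor, the highest of them. Of these the beta-globin gene Hbb-bt, with a range of 11.95 to 19.98 FPKM in the control and 3.54 to 4.43 FPKM in the knockout-labelled libraries, was lower in the latter (log2 change -1.61, limma adjusted p = 0.00247). Hbb-bt was the 1 erythroid marker past the threshold, and its means of 14.8 and 4.06 FPKM differed most. Klf1 (10.3 and 12.9 FPKM) and Epor (12.7 and 13.2 FPKM) had higher means in the knockout-labelled libraries, and the other erythroid markers lower ones. The sums without Hbb-bt were not computed. The 6 B cell markers summed to 27.5 to 30.1 and 23.5 to 25.8 FPKM, and the 7 T and NK cell markers to 74.4 to 101 and 52.2 to 63.4 FPKM. Nearly all of the B cell sum was Cd79b and of the T and NK cell sum Nkg7: without them the sums were 0.23 to 0.64 and 0.21 to 0.58 FPKM, and 2.31 to 2.57 and 2.43 to 3.35 FPKM. Ncr1 was at 0 in all libraries, and Pax5, Ms4a1, Cd8a and Cd3g did not exceed 0.02 FPKM. The 6 endothelial markers summed to 29.2 to 34.9 FPKM in the control and 35.2 to 36.9 FPKM in the knockout-labelled libraries, with Cdh5, which defines endothelium, at no more than 0.16 FPKM. Without Tek, the highest of them, the sums were 18.3 to 19.4 and 18.0 to 18.9 FPKM, which overlap. The 8 monocyte and macrophage markers summed to 362 to 405 and 341 to 372 FPKM, nearly all of it Lyz2. Without Lyz2 the sums were 18.9 to 21.5 FPKM in the control and 12.9 to 16.7 FPKM in the knockout-labelled libraries, which do not overlap. Cd68 was the highest of the rest and differed most, with means of 11.7 and 7.40 FPKM (limma adjusted p = 0.0857). C1qb had means of 4.58 and 4.72 FPKM, and the other markers of this list had lower means in the knockout-labelled libraries. The sums without Cd68 were not computed. The granulocyte, mast cell and stromal sums overlapped between the groups, with and without their highest marker. The part of these marker differences in the lower level of Mc5r was not tested.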

How the data were processed

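Per the labels' protocols, RNA of the sorted cells was purified with TRIzol-LS, and SMART-Seq v4, a kit that does not mark strand, was run on 2 ng of it. The authors deposited FPKM values with 2 decimals for 52183 genes in 6 libraries, and all value columns were used. GRCm38, mm10, STAR, edgeR and FastQC 0.11.5 are named in the submitters' processing notes. The role of each tool, the annotation and how reads were counted are not stated in the labels and not given in the sources used here.

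Positions and exon lengths came from GENCODE M21 (GRCm38), which matched 52097 of the identifiers and all 46 members. Read numbers were derived from the steps of FPKM in genes with at most 400 bp of exon, where 99.6% to 99.8% of values were whole within 0.1 read. They cover counting error only, since PCR copies are not independent molecules.

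FPKM are not counts, so log2(FPKM + 1) was tested with limma 3.58.1 in R 4.3.3 (lmFit, eBayes with trend, two-sided, group as the single term). A gene entered if it reached 1 FPKM in 3 or more of the 6 libraries, 12555 in all, and p-values were Benjamini-Hochberg adjusted over them with a threshold of 0.05. Changes are knockout-labelled minus control and understate low genes. Intervals are 95%. The steps were tested on simulated data.

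Values in every library are given for members with an unadjusted p below 0.05, and from each pathway list the genes past the threshold, otherwise the 1 with the smallest p, are named. P2ry13, P2ry12, Med12l, Rnmt, Mc2r, Rgs13 and Rgs21, and the library values of Ltb4r1 and Rgs1, were added after their values were seen. The members and lists were chosen with earlier results of these data known. Alternatives were TPM, quantile normalization, median of ratios, a pseudocount of 0.1, a minimum mean of 5 FPKM, all genes unfiltered, eBayes without trend, a replicate block, and fits without 1 library.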

Additional observations from a re-analysis of the deposited data

How the results depend on the processing

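None of the counts, nor any of the 9 members with an unadjusted p below 0.05, reversed under the 8 alternative settings or the 6 fits without 1 library. The member count of 1 lower became 0 without a filter, where Mc5r had a log2 change of -1.08 and an adjusted p of 0.103; the count of 0 higher became 3 in TPM. Mc5r otherwise passed in 13 of 14 alternatives (log2 change -1.20 to -0.94). Of all genes, 71 higher became 8 without a filter, 112 at a mean of at least 5 FPKM, 2016 in TPM, 24 without trend and 16 to 38 without 1 library, and 125 lower became 16 without a filter, 65 without trend and 43 to 77 without 1 library. Of the pathway genes, 3 higher became 0 without a filter, 15 in TPM, 1 without trend and 0 to 1 without 1 library, and 2 lower became 0 without a filter. The cause of these moves was not tested. The Thbs1 change ranged from 0.19 to 1.26 without 1 library, the highest without control 2.

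Replicate numbers did not pair the libraries: deviations of same-numbered libraries correlated at -0.11, 0.04 and -0.08. With the replicate number as a block, 27 genes were higher and 54 lower, 0 pathway genes were higher, and Mc5r stayed the 1 member past the threshold (limma adjusted p = 0.0222).

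With 3 libraries a group, members near 1 FPKM have wide intervals: for Adora2b, Gpr183 and Lgr4 changes of the size seen in P2ry1 or P2ry14 could not have been told from the spread. Under quantile normalization the signs of Gpr146, Rgs18 and Rgs19, all near 0, turned.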
